A study of Mus musculus with 8 samples.

Results

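Male immune cells labelled TCR1640 were compared with male immune cells labelled SJL/J across every gene of the count table. The table had 8 columns in 4 groups of 2, by strain label and sex, and the comparison used the 4 columns whose names carry no female mark, 2 for each strain label. The cells came from spleen and lymph node of mice aged 35 to 55 days, before signs of disease, and were not sorted. All groups were cultured for 4 days in medium with 10% serum, with anti-CD3 antibody at 1 µg/ml, IL-23 and IL-6 at 20 ng/ml each, TGF-β at 4 ng/ml and IL-12 at 3 ng/ml, a mixture named in the labels for TH1 and TH17 cells. The labels give no other allele or agent, and do not say whether the columns of a group came from separate mice. Of the 52636 genes in the table, 10469 had a mean level of at least 3 on the log2 scale of CPM (counts scaled to a common library size) over the male groups and are called measured. Among them, 6035 had no exon overlap with a gene on the opposite strand. Counts and medians of measured list members below leave out overlapped genes unless stated.

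The TCR1640 strain was made in SJL/J mice. Its T cells bear a transgenic receptor for a peptide of myelin oligodendrocyte glycoprotein, and the mice fall ill without immunisation, with autoimmune inflammation of brain and spinal cord. The receptor is known to combine an alpha chain of the Trav12 family with a beta chain of Trbv2. Helper T cells of the Th17 kind, marked by IL-17A and IL-17F, arise under TGF-β and IL-6 and are maintained by IL-23, while IL-12 favours Th1 cells that make interferon gamma. Resting T cells, by contrast, express homing receptors and the transcription factor TCF1, and lose them as they become effector cells.

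The T cell receptor segments went against the strain labels, so every direction given here is one between labelled libraries. An alpha chain is joined from a variable and a joining segment, and the joining segment Traj43 carried the clearest difference. It is printed with the other joining segment that followed it in the libraries labelled SJL/J, Traj15, and with the leading pair in the libraries labelled TCR1640, Traj48 and Traj34. The sequences come from the annotated GRCm38 exons, plus strand, at chr14:54174742-54174798, chr14:54204422-54204481, chr14:54169808-54169868 and chr14:54184699-54184756 in the order printed. Capitals mark the match to TTTGG, which can encode the start of the conserved phenylalanine-glycine motif of joining segments and was found in 42 of the 60 annotated Traj segments on the printed strand.
Traj43: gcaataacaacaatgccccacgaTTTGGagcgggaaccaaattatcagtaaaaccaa
Traj15: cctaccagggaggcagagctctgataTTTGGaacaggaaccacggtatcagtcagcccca
Traj48: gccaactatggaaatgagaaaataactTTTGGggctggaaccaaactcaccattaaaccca
Traj34: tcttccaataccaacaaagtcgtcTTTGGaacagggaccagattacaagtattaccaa

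Traj43 took 161 of 206 and 178 of 222 alpha joining counts in the male columns labelled SJL/J, and 0 of 90 and 5 of 82 in those labelled TCR1640. The summed shares were 79.2% (95% exact Clopper-Pearson interval 75.0 to 83.0) and 2.91% (0.951 to 6.65), and the column shares did not overlap. With 3 counts as the floor for a zero, 0 of 90 stands at a share of up to 3.33%, which is not an exact interval limit. Next in the libraries labelled SJL/J came Traj15 with 14 counts (3.27%), while Traj48 and Traj34 led the libraries labelled TCR1640 with 12 counts each (6.98%). One joining segment therefore made up most of the alpha joining counts under the SJL/J label and no segment did under the TCR1640 label. The effective number of joining segments, the number of equally used segments that would give the same diversity, was 1.59 and 29.3. The Trav12 family showed the same order, with 558 of 1021 alpha variable counts (54.7%, 51.5 to 57.7) under the SJL/J label and 65 of 1091 (5.96%) under the TCR1640 label. Its member Trav12-3 had 3 and 7 counts against 71 and 93, a log2 ratio of TCR1640 over SJL/J label of -4.37. Beta variable segments differed less steeply: Trbv2 took 157 of 249 counts (63.1%) in the libraries labelled SJL/J and 164 of 798 (20.6%) in those labelled TCR1640. The level of Trbv2 itself hardly differed, with a log2 ratio of -0.27 (-0.59 to 0.06), while the total of the class was larger under the TCR1640 label. The segment Trbv1 had 167 counts (20.9%) under the TCR1640 label, against 33 (13.3%). It led there about level with Trbv2, and their order differed between the columns (79 and 88 counts for Trbv1, 71 and 93 for Trbv2). Beta joining use was broad under both labels, with Trbj2-1 at 19.4% and 22.7%. The constant regions of the receptor were close to each other, with log2 ratios of -0.40 for Trac, 0.27 for Trbc1 and 0.48 for Trbc2. Intervals cover counting error only, since reads without molecular identifiers are not independent molecules.

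**Figure D1:**
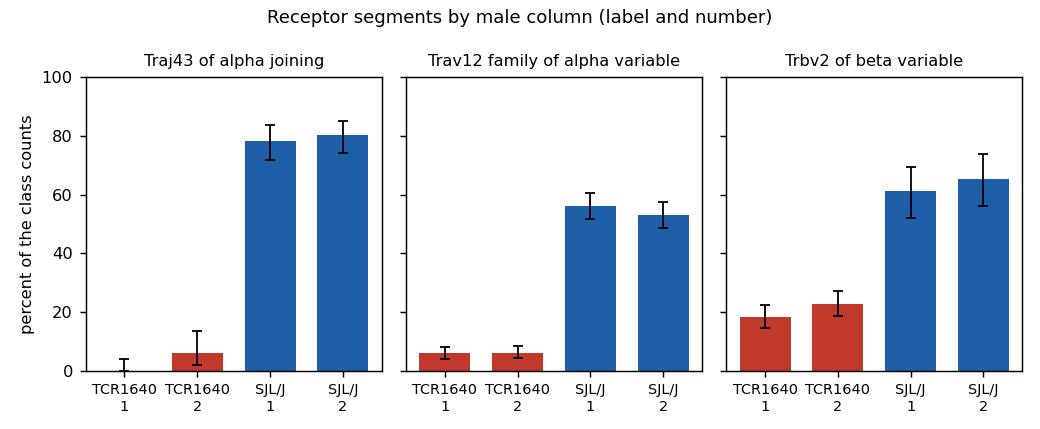
Share of Traj43 among alpha joining counts, of the Trav12 family among alpha variable counts and of Trbv2 among beta variable counts, in percent, in each male column; bars start at 0 and error bars are exact 95% binomial intervals. In all 3 panels both columns labelled SJL/J stand above both columns labelled TCR1640, with Traj43 at 78.2% and 80.2% against 0 and 6.10%.

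The sex labels held: the Y-linked Eif2s3y had 105 and 124 counts in the male columns labelled TCR1640 and 87 and 93 in those labelled SJL/J, and Xist had 25 to 44 counts in male and 668 to 784 in female columns. Column totals were 4889508 and 5116467 for the TCR1640 label and 3765291 and 3913569 for the SJL/J label. With the gene Gm43333 left out, counts varied between the columns of a group hardly more than sampling alone gives. The chi-square per degree of freedom was 1.050 to 1.077 within groups and 3.117 to 17.052 between groups. Gm43333 itself differed widely, with 44980 and 12117 counts in the male columns labelled TCR1640. The columns of a group were summed and counted as 1 sample, so no comparison has a replicate check and none carries a p-value. The pan-leukocyte gene Ptprc and the helper T cell gene Cd4 were abundant under both labels, with 2984 and 3256 against 1209 and 1248 counts and with 842 and 850 against 901 and 969 counts.

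The steepest differences between the male libraries were all lower under the TCR1640 label. A gene was counted as higher or lower when the ratio of summed counts, on library sizes scaled by trimmed means (TMM), was at least 2-fold, with an exact 95% interval that excluded equality. Of the 6035 genes without overlap, 229 were higher (3.79%) and 178 were lower (2.95%) in the libraries labelled TCR1640, 6.74% in either direction. Which direction had more genes was not stable: without the second column labelled TCR1640 there were 199 higher and 217 lower, and with no minimum on expression 747 and 1129. At 4-fold or more there were 21 higher and 52 lower genes, at 8-fold 2 and 24, and at 16-fold 0 and 14. The same rule applied between the columns of 1 group counted 3 genes under the TCR1640 label and 8 under the SJL/J label. Since the columns of a group are nearly the same, those of the labels did not overlap for 4307 of the 6035 genes (71.4%), so columns that do not overlap add little to a ratio. The median log2 ratio of the 6035 genes was -0.0006, with 5% of genes below -0.81 and 5% above 0.86. Over all 10469 measured genes, 429 were higher (4.10%) and 342 were lower (3.27%), 7.36% in all. Genes with exons that overlap on the opposite strand held 68.1% of counts under the TCR1640 label and 67.9% under the SJL/J label. In 510 of 616 overlapping pairs of a coding and a noncoding gene, with at least 200 counts and 100 shared bases (82.8%), the noncoding gene had more counts. The strand setting of the counting is not given in the sources used here, so a gene named with its overlapping partner below is uncertain. The setting applies to every gene of the table. A lack of exon overlap therefore does not show that the counts of a gene came from its own strand, which was not tested.

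**Figure D2:**
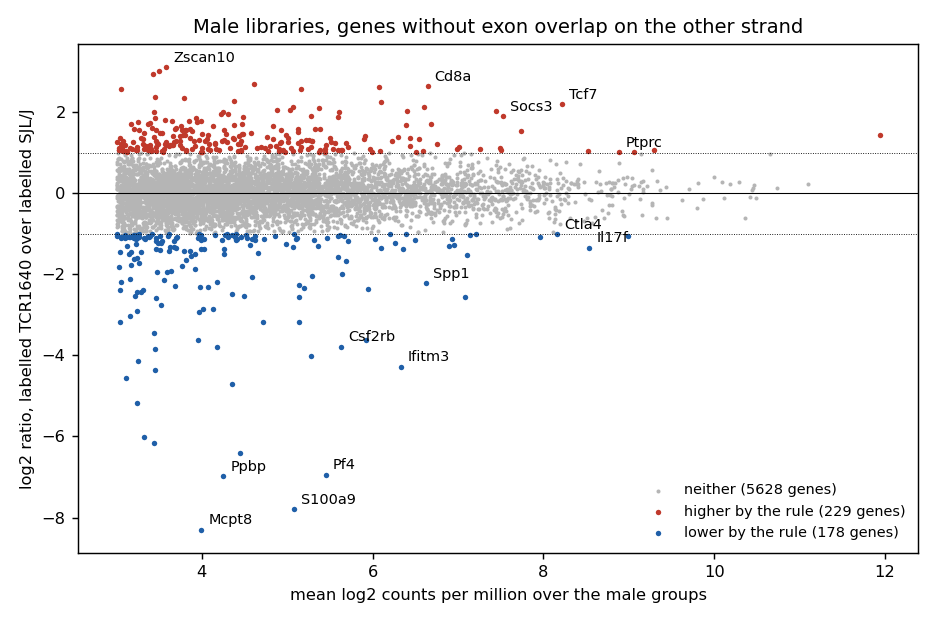
Log2 ratio of the libraries labelled TCR1640 over those labelled SJL/J against the mean log2 CPM of the male groups, 1 point per gene without exon overlap; dotted lines mark 2-fold. The 229 genes counted higher reach Zscan10 at 3.11, and the 178 counted lower reach Mcpt8 at -8.30 (S100a8 and Ppbp, at 0 counts, are drawn at their bound).

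Genes of resting and recirculating T cells were higher in the libraries labelled TCR1640. Of the 9 measured members of the naive and memory T cell list, 7 were higher and 0 lower, with a median log2 ratio of 1.70. Tcf7, which encodes TCF1, had 2401 and 2430 counts under the TCR1640 label and 405 and 435 under the SJL/J label. The columns did not overlap, and the log2 ratio was 2.19 (2.09 to 2.30). Klf2, the transcription factor that keeps T cells quiescent and drives expression of egress and homing receptors, had 335 and 327 against 67 and 55 counts (2.11). Ccr7, the chemokine receptor that guides T cells into lymph node, had 705 and 853 against 172 and 208 counts (1.70). For these genes the lowest column labelled TCR1640 lay well above the highest labelled SJL/J. Igfbp4 (2.03), Foxp1 (1.40) and the costimulatory receptor Cd27 (1.02, or 0.99 without the first columns) were also higher. The egress receptor S1pr1 stood at 0.15 and the IL-7 receptor chain Il7r at -0.17, neither past 2-fold. Lef1, the partner factor of TCF1, stood at 1.82 but overlaps Gm43352, which had 3104 and 3326 against 416 and 431 counts. Counting all 14 measured members with overlapped genes, 9 were higher and the median was 1.30.

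CD8 coreceptor genes were among the highest ratios of all. Cd8a, on chr6:71373427-71379173, had 838 and 861 counts in the columns labelled TCR1640 and 103 and 114 in those labelled SJL/J, a log2 ratio of 2.64 (2.43 to 2.85). Cd8b1, the other coreceptor chain, had 533 and 580 against 98 and 87 counts (2.26). Both coreceptor genes stood well above Runx3, a transcription factor of CD8 T cells also used by other lymphocytes, at 0.46. Cd4 had a log2 ratio of -0.48 (-0.57 to -0.38). In bulk libraries such as these, fewer cells of a type and less RNA per cell cannot be told apart. The killing genes did not follow the coreceptors: of 6 measured cytotoxic genes 0 were higher and 1 was lower, with a median of -0.01. The granzyme Gzmb and the pore protein Prf1 both stood at -0.01, and Gzmc, another granzyme, had 15 and 15 against 72 and 57 counts (-2.44). Ctsw, a cathepsin of cytotoxic cells, stood at 1.40 and overlaps Fibp.

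Th17 cytokine genes were lower in the male libraries labelled TCR1640. Of 8 measured Th17 genes without overlap, 0 were higher and 5 lower, with a median log2 ratio of -1.06. Il17a, the signature cytokine, had 354 and 346 counts under the TCR1640 label and 801 and 813 under the SJL/J label. Its columns did not overlap, and the log2 ratio was -1.54 (-1.67 to -1.41). Il17f, its close relative, had 1058 and 1019 against 2034 and 2168 counts (-1.35). The receptor for the added IL-23, Il23r, had 22 and 23 against 75 and 62 counts (-1.94), and the IL-1 receptor gene Il1r1 had 161 and 159 against 255 and 264 (-1.03). Il22, a cytokine acting on epithelium, had 31 and 22 against 37 and 53 counts (-1.10). Without the second columns Il22 was at -0.59 and Il1r1 at -0.997, so that these calls rest on both columns. The transcription factors Batf and Irf4, which open the Th17 programme, stood at -0.91 and -0.14, and the chemokine receptor gene Cxcr6 at -0.23. Among overlapped members Ahr, a ligand-activated factor of Th17 cells, stood at 1.17 and the IL-6 receptor gene Il6ra at 1.25. With all overlapped members included, 15 members gave 2 higher, 5 lower and a median of -0.52.

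Th1 genes showed no such shift: of 7 measured, 0 were higher and 0 lower, with a median of 0.05. Ifng, the interferon gamma gene, had 51 and 62 against 85 and 82 counts, a log2 ratio of -0.90 that did not reach 2-fold, and the Th1 factor Tbx21 stood at -0.44. The type 2 marker Il1rl1, the receptor for IL-33, had 14 and 15 against 57 and 68 counts (-2.44). Gata3, the type 2 lineage factor, stood at 1.81 and overlaps Gm13256.

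Regulatory and inhibitory receptor genes were mixed. Gpr83, a receptor abundant in regulatory T cells, had 85 and 97 counts under the TCR1640 label and 12 and 7 under the SJL/J label (2.93, interval 2.24 to 3.69). Izumo1r, the folate receptor 4 gene also used as a regulatory T cell marker, had 214 and 240 against 69 and 71 counts (1.36). Il2ra, the IL-2 receptor alpha chain induced on activation, went the other way with 1563 and 1723 against 2622 and 2789 counts (-1.05). Foxp3, the lineage factor, stood at -0.26 with an overlap with Ccdc22. Of 10 measured genes for IL-10 and inhibitory receptors, 1 was higher and 2 lower, with a median of 0.10. Il10, an anti-inflammatory cytokine, had 191 and 209 against 81 and 69 counts (1.08). The inhibitory receptor genes Ctla4, with 913 and 960 against 1464 and 1542 counts (-1.02), and Pdcd1 (-1.01) were lower. Each of these calls ended under an alternative: without the second columns Il10 was at 0.90 and Pdcd1 at -0.72, and with TMM factors from genes without overlap Ctla4 was at -0.99. Lag3, another inhibitory receptor, stood at 0.82. Of 6 costimulatory genes 0 were higher and 1, Slamf1, was lower (-1.27). Among 10 genes of the receptor complex and its proximal signalling only Ptprc, the CD45 phosphatase, was past 2-fold (1.01, or 0.97 without the second columns), and the median was 0.37.

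Receptor chains of the GM-CSF and IL-3 axis had some of the steepest differences. Csf2rb, the common beta chain, had 29 and 37 counts in the columns labelled TCR1640 and 354 and 371 in those labelled SJL/J. The groups did not overlap, and the log2 ratio was -3.79 (-4.18 to -3.43). Csf2rb2, the IL-3 specific beta chain found in mice, had 23 and 22 against 289 and 288 counts (-4.01), and Csf1, the macrophage growth factor, had 66 and 86 against 251 and 244 (-2.04). All 3 measured genes of this list without overlap were lower, with a median of -3.79. Over all 5 measured members, overlapped ones included, 3 were lower and 2 were neither higher nor lower, with a median of -2.04. Of 5 measured neutrophil markers 4 were lower in the same libraries, and the summed level of all 16 was 22.7 against 199 CPM, with Ctsg, Elane, Mmp8 and S100a8 at 0 under the TCR1640 label. Their part in the receptor result was not tested.

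Socs3 and Socs1, feedback inhibitors of cytokine signalling, were higher under the TCR1640 label. SOCS proteins are induced by cytokine receptors and block further signalling. Socs3, which limits the IL-6 receptor, had 1431 and 1444 counts under the TCR1640 label and 306 and 306 under the SJL/J label, a log2 ratio of 1.90 (1.77 to 2.03). Socs1, an inhibitor of interferon signalling, had 205 and 238 against 56 and 64 counts (1.55). In all, 2 of the 4 measured SOCS genes without overlap were higher and 0 lower (median 0.94, or 0.19 with no minimum on expression). Socs2 had 10 and 9 against 27 and 34 counts, the opposite direction, below the level needed to be counted. Of 6 JAK and STAT genes without overlap 0 were higher and 0 lower (median 0.35). The kinase gene Jak1, which overlaps Raver2, had 2011 against 787 counts over the columns (1.02, or 0.96 without the first columns). Of 10 genes of the TGF-β pathway 0 were higher and 0 lower (median 0.02), with the inhibitor Smad7 at 0.99. Of 7 immediate early genes, which mark recent receptor stimulation, 1 was higher, Nr4a1 at 1.08, and the median was 0.47.

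Interferon-induced membrane proteins of the Ifitm family, which restrict virus entry, were lower, whereas other interferon-induced genes were not. Ifitm3 had 42 and 36 counts in the columns labelled TCR1640 and 582 and 623 in those labelled SJL/J. Its log2 ratio was -4.28 (-4.63 to -3.95). Ifitm1 had 188 and 201 against 866 and 956 counts (-2.56), and Ifitm2 had 29 and 32 against 140 and 131 (-2.48). These are all 3 measured members without exon overlap, and their median was -2.56. Of 12 GTPases induced by interferon gamma 0 were higher and 0 lower, with a median of 0.11 and values from Gbp7 at -0.75 to Irgm2 at 0.76. Type I interferon response genes had 2 measured members without overlap, neither past 2-fold (median 0.43), and 5 class I genes of antigen presentation had a median of 0.25 with 0 past the rule.

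The Ifitm3 promoter is printed because the gene had the lowest ratio of its family, beside GTPases that share the interferon response motif. It spans chr7:141010695-141010994, minus strand, from 250 bases before to 50 after the RefSeq start on GRCm38.p6, and capitals mark GAAANNGAA, where N is any base.
Ifitm3: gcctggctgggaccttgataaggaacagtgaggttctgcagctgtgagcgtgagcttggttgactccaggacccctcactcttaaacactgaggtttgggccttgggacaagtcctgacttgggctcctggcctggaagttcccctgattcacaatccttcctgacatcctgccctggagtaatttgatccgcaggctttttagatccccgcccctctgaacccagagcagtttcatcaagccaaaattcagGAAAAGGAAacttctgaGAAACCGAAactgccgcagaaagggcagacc
Both matches lie on the printed strand. Searched on both strands, the motif was in 2 of 6 Ifitm promoters (Ifitm2 and Ifitm3), in 9 of 9 promoters of the interferon gamma GTPases, in 10 of 14 of the type I interferon list, and in 2812 of 32851 promoters in all (8.56%). A match is a run of letters and not a binding measurement.

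Proliferation and glycolysis genes mostly had negative ratios of less than 2-fold. Of 15 measured genes of G2 phase and mitosis, 15 had a negative log2 ratio and 0 passed the rule, with a median of -0.67. Mki67, the standard proliferation marker, had 1904 and 2050 against 2227 and 2399 counts (-0.56), and Bub1, a spindle checkpoint kinase, stood at -0.95. DNA replication genes were negative in 12 of 14 (median -0.47), and glycolysis genes in 11 of 13 (median -0.44), again with 0 past the rule. The lactate exporter Slc16a3 stood at -0.96, the first kinase of glycolysis, Hk2, at -0.78, and lactate dehydrogenase A, Ldha, at -0.70. In the list of 16 cytosolic ribosomal proteins the median was 0.01, beside -0.0006 over all genes. Respiratory chain (median -0.28), proteasome (-0.32), serine synthesis (-0.52), ATF4 target (-0.35) and cholesterol synthesis lists (-0.14) had 0 members past the rule. Of 6 genes of the BCL2 family 0 were higher and 1 lower, the cell death inducer Pmaip1 at -1.05 (-0.67 without the second columns), while Bcl2l11 stood at 0.80.

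Transcripts known from other blood cell types made up 9 of the 12 lowest ratios. Among neutrophil genes S100a9, a calcium-binding protein, had 1 and 2 counts in the columns labelled TCR1640 and 244 and 284 in those labelled SJL/J, a log2 ratio of -7.79 (-10.07 to -6.24). S100a8, its partner subunit, had 0 and 0 against 79 and 92 counts, at least 71.8-fold lower with 3 counts, summed over the group, as the floor. Ngp, a neutrophil granule protein, had 6 and 8 against 71 and 90 counts (-3.86). These genes were near absent under the TCR1640 label, and 4 of 5 measured neutrophil genes without overlap were lower (median -3.86), the matrix protease Mmp9 (-1.38) included. The chemokine receptor Cxcr2 stood at 0.09. Summed over the 16 neutrophil markers, the columns labelled TCR1640 had 99 and 126 counts and those labelled SJL/J 759 and 808. Ctsg, Elane, Mmp8 and S100a8 were at 0 in both columns labelled TCR1640 and no marker was at 0 in those labelled SJL/J. Mpo, the myeloperoxidase gene, had 0 and 1 against 99 and 69 counts and overlaps Gm11505. Ly6g, a surface marker of mature neutrophils, had 19 and 30 against 4 and 10 counts (1.47), below the level needed to be counted.

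Platelet and megakaryocyte genes had a median of -4.70 over members without overlap, with 6 of 7 lower and 0 higher. Over all measured members the platelet median was -4.91 and the neutrophil median -5.01. Pf4, the platelet factor 4 chemokine, had 3 and 4 counts under the TCR1640 label and 335 and 347 under the SJL/J label (-6.94, interval -8.26 to -5.89). Ppbp, a second platelet chemokine, had 0 and 0 against 132 and 168 counts, at least 126-fold lower. Vwf, the von Willebrand adhesion factor, had 6 and 9 against 143 and 167 counts (-4.70). The integrin chains of platelets followed, Itga2b with 40 and 50 against 426 and 455 counts (-3.62) and Itgb3 with 94 and 105 against 423 and 390 (-2.36). Unlike these genes, Gp1ba, a von Willebrand receptor chain, stood at 0.38. Clec1b, Gp6, Ppbp and Treml1 were at 0 under the TCR1640 label and no platelet marker was at 0 under the SJL/J label, and summed levels were 118 and 627 CPM. Thbs1, which encodes thrombospondin and overlaps Gm29233, had 14 and 21 against 476 and 494 counts (-5.13).
The Pf4 promoter, chr5:90772185-90772484, plus strand, over the same window and build, is printed for the gene with the lowest ratio among the measured platelet genes that had counts under both labels, with AGATAA, the letters bound by Gata1 and its relatives, in capitals.
Pf4: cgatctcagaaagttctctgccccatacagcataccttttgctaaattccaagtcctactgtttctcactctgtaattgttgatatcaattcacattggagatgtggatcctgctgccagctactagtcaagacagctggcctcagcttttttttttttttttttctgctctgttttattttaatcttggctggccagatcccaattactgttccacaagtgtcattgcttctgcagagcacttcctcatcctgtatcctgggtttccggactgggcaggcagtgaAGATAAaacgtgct
On either strand AGATAA was in 4 of 11 platelet list promoters (Clec1b, Gp5, Gp6 and Pf4), 5 of 11 of the mast cell and basophil list and 1 of 13 of the naive T cell list, beside 3672 of 32851 in all (11.2%).

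Mcpt8 and Gata2, of the mast cell and basophil list, were lower and the stem cell factor receptor was higher. Mcpt8, a protease of basophils, had 0 and 1 counts against 129 and 121 (-8.30, interval -13.61 to -5.81). Without the second columns, at 0 against 129 counts, it was at -5.76 or lower, a bound with 3 counts as the floor. Gata2, a transcription factor of mast cells, basophils and progenitors, had 16 and 20 against 109 and 108 counts (-2.92). Kit, the stem cell factor receptor, had 250 and 262 against 58 and 79 counts (1.57), the reverse direction, and Hdc, which makes histamine, stood at -0.51. In all, 1 of the 4 measured genes was higher and 2 were lower, with a median of -1.72, and Mcpt4 and Tpsb2 were at 0 under the TCR1640 label. Mcpt1, a mast cell protease outside the measured list members, had 0 and 0 against 56 and 47 counts, at least 43.2-fold lower.

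Some erythroid and antibody genes were also lower, and the monocyte list was mixed. Car1, a carbonic anhydrase of red cells, had 3 and 4 against 68 and 62 counts (-4.55), Gata1, the erythroid and megakaryocyte factor, had 25 and 24 against 65 and 85 (-1.95), and 3 of 5 measured erythroid genes were lower (median -1.10). Summed erythroid levels were 49.8 and 116 CPM. Of 2 measured monocyte genes without overlap 1 was lower. Spp1, a secreted glycoprotein gene grouped with monocytes, had 182 and 165 against 629 and 651 counts (-2.22, interval -2.39 to -2.04), and the cathepsin gene Ctss stood at 0.83. Below the level needed to be counted, the macrophage genes Chil3 and Lyz2 had 0 and 0 against 41 and 47 counts and 1 and 1 against 24 and 37. Igkc, the kappa light chain constant region, had 62 and 57 against 231 and 249 counts (-2.34), and Ighm, the IgM constant region, had 372 and 387 against 625 and 695 (-1.13). Of the B cell list only Cd79a was measured without overlap, at 0.66, and the plasma cell factor Xbp1 stood at -0.33. Class II antigen presentation genes, with 3 measured without overlap, had a median of -0.54 and 0 past the rule. Over all 5 measured members 1 was higher, the overlapped H2-Oa at 1.11 (0.84 without the second columns), and the median was -0.30. Trdc, the gamma-delta receptor constant region, had 40 and 36 against 123 and 135 counts (-2.10) and overlaps Trdv5. Chemokine ligands split, with Ccl5 higher (91 and 87 against 28 and 30 counts, 1.28) and Ccl3 lower (33 and 40 against 75 and 95, -1.55). Among 8 chemokine receptors, Ccr1 (-2.90), Ccr2 (-1.17) and Cxcr4 (-1.08) were lower and Ccr7 was the only one higher. Serine protease inhibitors of the Serpina3 cluster were lower, Serpina3g with 22 and 30 against 188 and 183 counts (-3.17) and Serpina3f with 6 and 10 against 64 and 52 (-3.19).

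**Figure D3:**
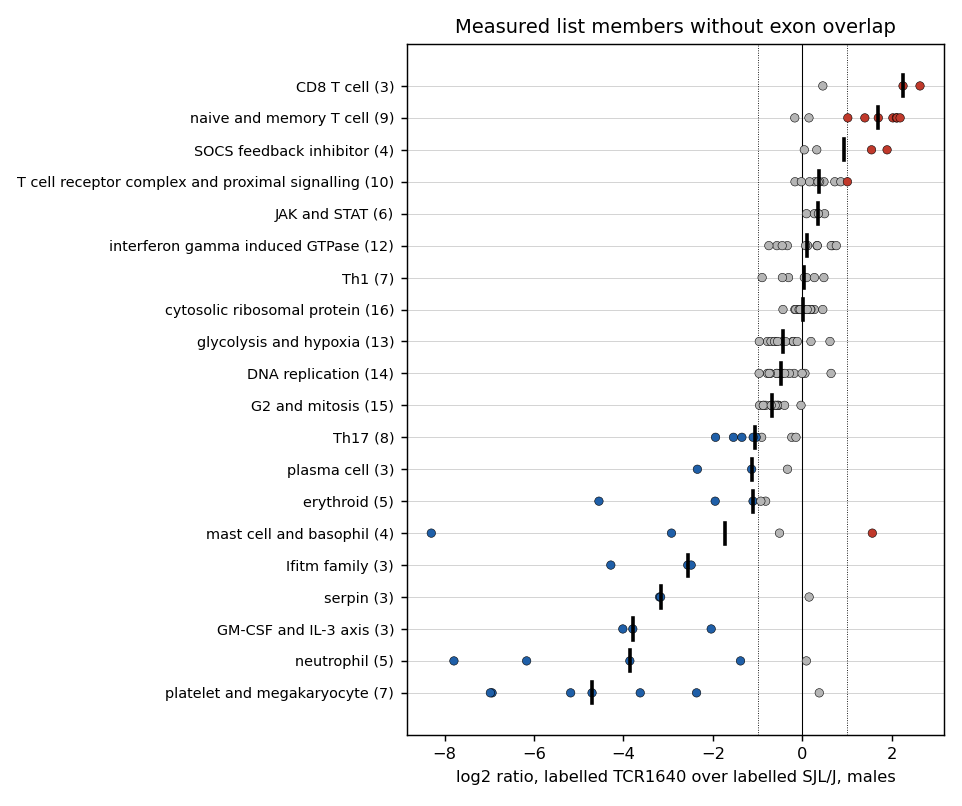
Log2 ratio, labelled TCR1640 over labelled SJL/J, of each measured member without exon overlap in 20 lists, ordered by median (black bar); red and blue points passed the rule and dotted lines mark 2-fold. The CD8 and naive T cell lists have the highest medians (2.26 and 1.70) and the platelet list the lowest (-4.70); genes at 0 counts are drawn at their bound.

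The other leading genes belong to no one list. Zscan10, a zinc finger factor known from pluripotent cells, had the highest ratio, with 104 and 102 counts under the TCR1640 label and 7 and 12 under the SJL/J label (3.11, interval 2.43 to 3.87). Qrich2 followed with 84 and 108 against 9 and 10 counts (3.00). Ggt1, a glutathione-cleaving enzyme, had 307 and 291 against 43 and 37 counts (2.57), and Lrrc75b, its neighbour on chromosome 10, had 59 and 76 against 10 and 8 (2.57). The calcium channel Trpv6 (111 and 112 against 26 and 9), the membrane-bending protein Pacsin1 (146 and 188 against 26 and 29) and Lst1 (253 and 282 against 49 and 48) had log2 ratios of 2.34, 2.27 and 2.13. Without the second columns Trpv6 was at 1.76. On the lower side Abca4, a lipid transporter known from the retina, had 6 and 4 against 81 and 60 counts (-4.15).

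**Figure D4:**
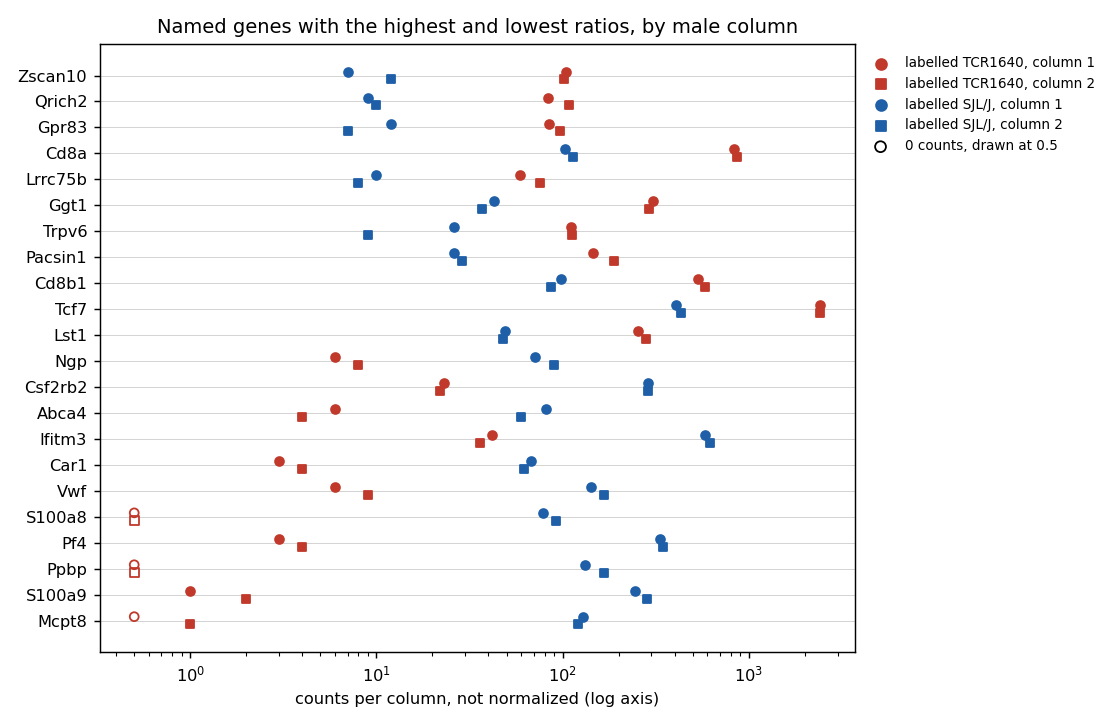
Counts per male column, not normalized, on a log axis for the named genes with the highest and lowest ratios among coding genes without exon overlap; open symbols mark 0 counts. For each gene shown both columns of one label lie on one side of both columns of the other, from Zscan10 (104 and 102 against 7 and 12) to Mcpt8 (0 and 1 against 129 and 121). The genes were chosen by their ratios, and scaled columns of the labels did not overlap for 71.4% of the 6035 genes without exon overlap.

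The female libraries, which share no samples with the male ones, had the same directions for most of these genes and smaller ratios. In females 169 genes were higher (2.82%) and 123 lower (2.05%) of 5988 measured, 4.88% in all. Of the 217 genes higher in males that were measured in both sexes, 110 also passed the rule in females (50.7%, and 71.0% of the 155 higher in females), and 214 had the same sign. Of the 151 lower in males, 69 passed in females (45.7%, and 58.0% of 119), and 148 had the same sign. In opposite directions, 0 genes passed. The median ratio of the male-chosen genes was 1.27 in males and 1.01 in females on the higher side, and -1.27 and -0.95 on the lower side. The genes were chosen by their male ratio.
The same receptor segments led in females, with Traj43 at 75.6% under the SJL/J label and 5.04% under the TCR1640 label. CD8 and resting T cell genes were close between sexes, Cd8a at 2.64 in males and 2.75 in females and Tcf7 at 2.19 and 1.78. Among Th17 genes Il17a stood at -1.54 and -1.30 and Il23r at -1.94 and -0.94. The widest gaps included genes of other cell types. Ngp stood at -3.86 (-4.76 to -3.07) in males and -1.03 (-1.67 to -0.42) in females, and complement C3 at -3.04 and -0.83. Mcpt8 stood at -8.30 and -4.87 and S100a9 at -7.79 and -5.29, but each male value rests on 1 to 3 counts and the male and female intervals overlapped (-13.61 to -5.81 and -6.33 to -3.72 for Mcpt8, -10.07 to -6.24 and -6.93 to -4.05 for S100a9). Without the second male columns Mcpt8 had 0 against 129 counts, which gives only a bound, -5.76 or lower. Spp1 stood at -2.22 in males and -0.09 in females. The erythroid list had a median of -1.10 in males and 0.40 in females, where by the rule 0 members were higher and 1 was lower. Its globin Hba-a2 stood at -1.10 and 0.58, with a female interval that included equality (-0.01 to 1.18). Car1 was lower in both sexes, at -4.55 and -5.55. In females Hba-a2 and Car1 were below the level needed to be counted. Pf4 differed little between sexes, at -6.94 and -6.67, as did Csf2rb2 at -4.01 and -3.88. With 1 sample in each group, the difference between the male and the female ratio was not tested.

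**Figure D5:**
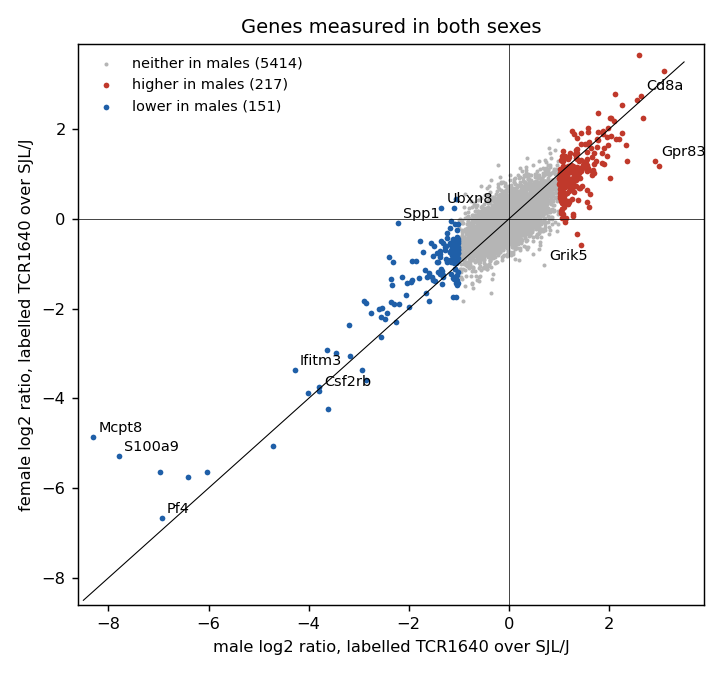
Female against male log2 ratio, labelled TCR1640 over labelled SJL/J, for genes without exon overlap measured in both sexes; the diagonal marks equal ratios and colours mark the 217 genes higher and 151 lower in males. Nearly all coloured points keep their sign in females; Spp1 (-2.22 and -0.09) lies far from the diagonal and Pf4 (-6.94 and -6.67) close to it.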

How the data were processed

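RNA from cultured mouse spleen and lymph node cells was made into libraries from 500 ng with a KAPA stranded mRNA kit, per the labels' protocols. The authors deposited whole-number read counts per Ensembl gene, not normalized; bcl2fastq 2.17, Bowtie2, HTSeq and mm10 are named in the submitters' processing notes, while neither the strand setting nor the annotation release is named there. Groups and replicate numbers came from sample titles. Symbols, positions and overlaps came from GENCODE M21 on GRCm38, and 147 identifiers had no match. The 2 columns of a group were summed and counted as 1 sample. Log2 ratios used TMM-scaled library sizes (edgeR 4.0.16, R 4.3.3). Intervals are exact 95% conditional binomial (scipy 1.17.1). A zero was set to a floor of 3 counts. Column fits with edgeR, DESeq2 1.42.0 and limma 3.58.1 compare these libraries, not the conditions. The procedure was tested on simulated data. Genes named were the 12 highest and 12 lowest, members of 49 lists, leading receptor segments, those with the largest male to female gap and those at 0 in a group with at least 100 counts in the other; genes named beside an overlap were chosen after their values were seen. Members and lists were chosen with earlier results of these data known. Alternatives were other scalings, filters and folds, single columns and replicate blocks. Python 3.11.15 was used. A few genes that these rules select are not reported here by name; they stay in the counts and medians.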

Additional observations from a re-analysis of the deposited data

Results flagged for a closer look

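In 5 genes every male column moved one way between the labels and every female column the opposite way, with intervals that excluded equality in both sexes and a ratio of at least 2-fold in 1 sex or both. The difference between the sexes was not tested in any of them. Ubxn8, a ubiquitin-linked protein of the endoplasmic reticulum, had 381 against 770 counts in males, a log2 ratio of -1.35 (-1.53 to -1.17), and 1039 against 939 counts in females, a log2 ratio of 0.24. Grik5, a kainate receptor subunit, had 125 against 61 counts in males (0.70) and 40 against 87 in females (-1.03). The predicted gene Gm16185 stood at -0.22 in males and 1.21 in females, with 1357 against 1257 and 2749 against 1270 counts. Gm28438 stood at -1.09 and 0.24, and Gm11408 at -1.05 and 0.44.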

How the results depend on the processing

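The count of 229 higher and 178 lower genes stayed within 1.5 times under RLE scaling (228 and 178), upper-quartile scaling (232 and 178), TMM on genes without overlap (240 and 165) and total counts (203 and 195), which moved the median log2 ratio by at most 0.05. Leaving out single columns gave 199 to 254 higher and 164 to 217 lower genes. The balance turned to more lower genes without the second column labelled TCR1640 (199 and 217) and without the expression minimum: 551 and 634 genes with edgeR's expression filter, and 747 and 1129 with none. At 1.5-fold there were 661 and 647 genes, and at 4-fold 21 and 52. With the columns treated as replicates, which compares these libraries and not the conditions, at an adjusted p threshold of 0.05, edgeR called 1785 and 2036 genes on 8 columns and 1752 and 2017 on the male columns, DESeq2 961 and 1116, and limma-voom 1723 and 2021. The replicate block gave 1801 and 2052 genes in edgeR. Deviations of same-numbered male columns correlated at 0.0035. Columns this alike leave little but counting error to correlate, so this value cannot decide whether the numbers pair the samples. Gm43333 and Grip2 were higher in the first than in the second male column under both labels. With overlapped members included, list medians became 1.30 (naive T cell), 1.36 (CD8), -0.52 (Th17), 0.41 (SOCS), -2.04 (GM-CSF and IL-3) and -5.01 (neutrophil). With no expression minimum they became 1.82 (CD8), 0.19 (SOCS), -2.79 (GM-CSF and IL-3) and -2.92 (mast cell and basophil). Traj43 under the TCR1640 label was 0.0000% and 6.10% in single columns. Of 415 values of 83 named genes under alternatives, 405 stayed inside the interval of the main value, 10 did not and 0 reversed. In 10 genes a value was under 2-fold in at least 1 alternative (11 values). Among the values outside the interval, those of Ppbp, S100a8 and Mcpt8 came from columns labelled TCR1640 with 0 counts. They are bounds set by the floor of 3 counts, such as -5.79 and -6.15 for Ppbp against -6.98 on the summed columns. The cause of the other changes was not tested. The scalings among these alternatives moved every gene by the same amount: RLE by -0.0022, upper-quartile by 0.0052 and TMM on genes without overlap by 0.0265. Shifts so small could not leave the intervals. The other alternatives were single columns, which are parts of the summed counts, so the 405 values are no independent check. Depth limits genes with few counts: the interval of Mcpt8, with 0 and 1 counts under 1 label, ran from -13.61 to -5.81.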

Other observations

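An antibody heavy chain joining segment, chosen after its values were seen, differed steeply between the labels. Ighj4, on chr12:113428514-113428567, had 1 and 2 counts in the male columns labelled TCR1640 and 71 and 84 in those labelled SJL/J, and the female libraries had 3 against 160 counts. Heavy chain variable use was broad under both labels, with effective numbers of 30.7 and 36.6 segments. Summed over all heavy chain variable segments the male counts were 116 and 215, and over kappa variable segments 61 and 169.

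Genes that neighbour each other on chromosome 7, among them olfactory receptor genes, were lower together under the TCR1640 label. Olfr524 had 9 and 9 against 80 and 76 counts (-3.45), Olfr525 had 31 and 38 against 233 and 267 (-3.19), and Olfr527 had 13 and 16 against 78 and 78 (-2.76). Between Olfr524 and Olfr525 lies 5830411N06Rik, with 1 and 2 against 24 and 35 counts (-4.63). Olfr60 had 5 and 3 against 23 and 24 (-2.89). Both 5830411N06Rik and Olfr60 were below the level needed to be counted. These genes, like those that follow here, were chosen after their values were seen. The heat shock gene Hspa1b had 112 and 120 against 29 and 22 counts, a log2 ratio of 1.85. Over the autosomes, the share of genes past the rule ran from 2.56% on chromosome 18 to 11.1% on chromosome 1, and on chromosome 11 there were 29 higher and 8 lower genes.

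Overlapping pairs held further steep ratios that cannot be given to either gene. Syn3, whose introns contain Timp3, had 174 and 143 against 4745 and 4795 counts (-5.24). Of 78 pairs with a member past the rule, 73 had both members in the same direction.

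Columns of a group differed in single genes. Gm43333 had 44980 and 12117 counts in the male columns labelled TCR1640 and 12381 and 4326 in those labelled SJL/J, so the columns of the labels overlapped. Grip2 had 934 and 298 against 253 and 130 counts.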
